A study of Mus musculus with 2 samples.

Results

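Clu, Sox9, Star, Myh11 and Acta2 are 5 messenger RNA genes that mark somatic cells of the testis, the cells that surround and support the germ cells. Clu encodes clusterin, a secreted chaperone made by Sertoli cells, and Sox9 encodes the transcription factor that directs Sertoli cell fate. Star encodes the protein that moves cholesterol into mitochondria for steroid synthesis in Leydig cells. Myh11 encodes the smooth muscle myosin heavy chain and Acta2 the smooth muscle actin, both made by the peritubular myoid cells that wrap the seminiferous tubules. Small RNA sequences of 18 to 40 nt were assigned to these genes when their whole length matched, in sense, an annotated transcript, and 1843 of the 22794309 distinct sequences listed did so. The Tdrkh-/- library held 755 of them and the Tdrkh+/- library 1277, with 189 in both. They carried 4925 reads in Tdrkh-/- and 3033 reads in Tdrkh+/-, which is 0.00808% and 0.00703% of all reads listed.

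The study sequenced small RNA from whole testes of mice at 11 days after birth, with 1 library for homozygous Tdrkh knockouts and 1 for heterozygous controls. Each library was made from 5 pairs of testes. The knockout allele lacks exons 2 to 4, removed from floxed animals with EIIa-Cre, a Cre transgene that acts in the early embryo, and the transgene was then bred out. The colony had a C57Bl6/129 background, and 2 knockout lines came from independent founders. The labels do not say which line or lines gave the tissue, and the controls also carry 1 deleted allele. With 1 library per genotype there is no replicate check, so no test was made, and every interval covers counting error only, for reads that carry no molecular identifiers and are not independent molecules.

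PIWI-interacting RNAs, or piRNAs, are small RNAs of germ cells that are bound by PIWI proteins and guide them to transposons and other transcripts. Primary piRNAs are cut from long single-stranded precursors, among them the 3′ untranslated regions of many messenger RNAs in prepubertal testes, and most begin with U. Their 3′ ends are trimmed to the size that the PIWI protein protects, and TDRKH is a mitochondrial tudor protein that acts in this trimming. Fragments of messenger RNA left by general decay have no fixed length and no preference for a 5′ U.

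The most read sequences of the 5 genes are listed as examples, and they were matched to GENCODE M21 transcripts on the GRCm38 build. They do not stand for the 5′ base of all reads of a gene, which is given further on. In the lines that follow, the letters are DNA, a capital T marks a U at the 5′ end of the RNA, and sequences without a capital begin with another base. Sequences longer than 30 nt are shown by their first 24 nt.
Star, most read 24 to 30 nt sequence in Tdrkh+/-: Taaagaacatacatgcacacttcagcct
Star, most read 24 to 30 nt sequence in Tdrkh-/-: Tgatagaaccatcccgggaatcagttaaga
Star, most read 31 to 37 nt sequence in Tdrkh-/-, first 24 of 34 nt: ccagaacttgaatgaaactaccta
Clu, most read 24 to 30 nt sequence in Tdrkh+/-: acatgtctccaggcgagtaggcctcaccc
Clu, most read 24 to 30 nt sequence in Tdrkh-/-: cacatgtctccaggcgagtaggcctcaccc
Sox9, most read 24 to 30 nt sequence in Tdrkh+/-: Tatgctgttcctagaacattcactgtgcct
Myh11, most read 24 to 30 nt sequence in Tdrkh+/-: aggcagtggaggaactcacagagcagc
Myh11, most read 24 to 30 nt sequence in Tdrkh-/-: acaggcagtggaggaactcacagagcagc
Acta2, most read 24 to 30 nt sequence in Tdrkh+/-: Tgacaggatgcagaaggagatcacagcc
Acta2, most read 24 to 30 nt sequence in Tdrkh-/-: Tgacaggatgcagaaggagatcacagccc

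The first Star sequence lies in exon 7, within the 3′ untranslated region, at chr8:25813397-25813424 on the plus strand, and had 55 reads in Tdrkh+/- and 0 in Tdrkh-/-. The second Star sequence, at chr8:25815067-25815096 in the same exon, had 4 reads in Tdrkh+/- and 35 in Tdrkh-/-. The third had 37 and 132 reads, begins with C at chr8:25813286-25813309, and did not share the 5′ U of the other two. Both Clu sequences end at the same base of exon 9 in the 3′ untranslated region and start 1 nt apart, at chr14:65981406-65981434 and chr14:65981405-65981434. The first of this pair had 19 reads in Tdrkh+/- and 7 in Tdrkh-/-, and the second had 6 and 17. Both Myh11 sequences also share their last base, at chr16:14211243-14211269 and chr16:14211243-14211271 on the minus strand, in coding exon 27. They had 48 and 11 reads in Tdrkh+/- and 115 and 153 reads in Tdrkh-/-. Nested sequences with a shared 3′ end and different 5′ ends therefore stood among the most read of Clu and Myh11.

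The Sox9 sequence begins with U and lies in the 3′ untranslated region, at chr11:112786500-112786529 on the plus strand, and had 13 reads in Tdrkh+/- and 0 in Tdrkh-/-. The 2 Acta2 sequences begin at the same base of coding exon 8 and span chr19:34243344-34243371 and chr19:34243343-34243371 on the minus strand. They had 11 and 7 reads in Tdrkh+/- and 2 and 25 in Tdrkh-/-, and each also matches 6 other genes, so they cannot be assigned to Acta2 alone.

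The Tdrkh-/- library listed 60973266 reads and the Tdrkh+/- library 43172204 reads. Sense reads inside exons 2 to 4 of Tdrkh, the deleted part, numbered 0 of 748 on that transcript in Tdrkh-/- and 17 of 1116 in Tdrkh+/-. The usual span of prepubertal piRNAs, 24 to 30 nt, held 71.7% of all reads of Tdrkh+/- and 24.2% of those of Tdrkh-/-. The span of 31 to 37 nt held 15.2% and 53.2%. The 5 genes are described against this shift of the whole libraries. Levels are given per microRNA read, counted as 2482491 reads in Tdrkh-/- and 2355845 in Tdrkh+/-. Scaling to all reads listed instead would lower every log2 ratio of Tdrkh-/- to Tdrkh+/- by 0.42, and scaling to reads that match transcripts would lower it by 0.57. Since whole testes were used, fewer cells of a type and less RNA per cell cannot be told apart in any of these ratios.

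In Tdrkh+/- testes the reads of Star gathered at piRNA length, and those of the other 4 genes were spread over the whole range. Star had 764 reads there, with a peak at 28 nt that alone held 24.5% of them. Its 24 to 30 nt share was 70.3% (95% Wilson interval 67.0 to 73.4), and 49.5% of its reads were 26 to 28 nt long. An even spread over 18 to 40 nt would put 30.4% of reads at 24 to 30 nt. Clu had 37.5% of 783 reads in that span (34.2 to 40.99), and its most common length, 29 nt, held 8.05% of reads. Sox9 had 41.1% of 168 reads there (33.9 to 48.6). Myh11 had 32.9% of 737 reads there (29.6 to 36.4). Acta2 had 22.0% of 503 reads there (18.6 to 25.9), and its most common length was 40 nt, the upper limit of the files. Reads that match several genes were divided among them, which leaves fractions for Myh11 and Acta2.

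**Figure D1:**
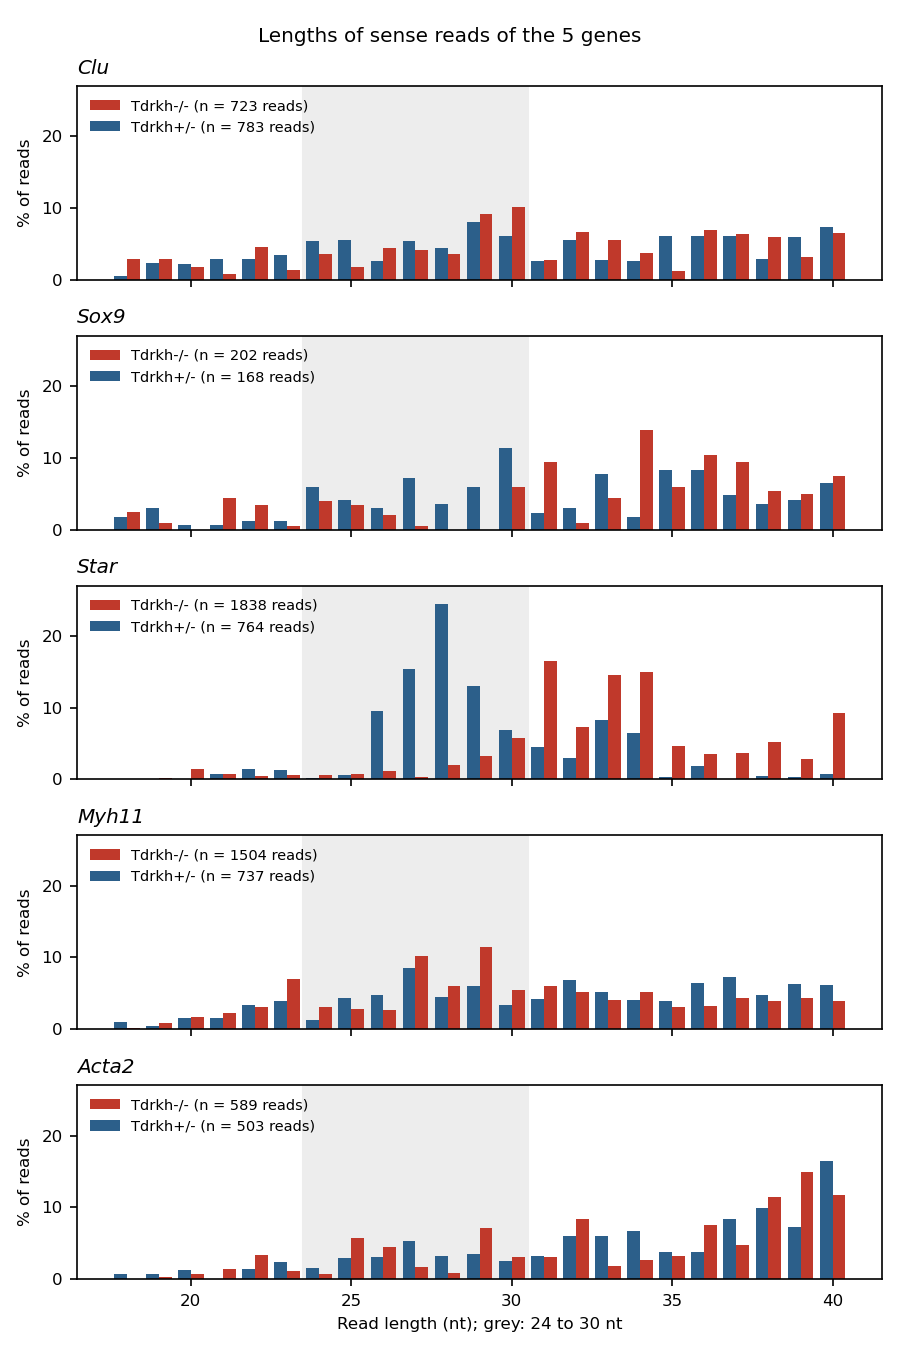
Lengths of the sense reads of each gene, as percent of its reads of 18 to 40 nt (vertical axis) against read length in nt (horizontal axis), with Tdrkh-/- in red and Tdrkh+/- in blue and the 24 to 30 nt span in grey. Star has a peak at 28 nt in Tdrkh+/- with 24.5% of its reads, while the other genes have no single peak above 17% in either library. The most common Star length in Tdrkh-/-, 31 nt, holds 16.5% of its reads and is also under that mark.

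The comparison set was 4046 genes, protein-coding or long noncoding, that had 500 or more piRNA-size reads (24 to 30 nt) over both libraries. Their median 24 to 30 nt share was 77.7% in Tdrkh+/- and 26.3% in Tdrkh-/-. These genes were taken for their number of piRNA-size reads, so the comparison set leans to such hosts. Star, Clu and Myh11 reach that minimum, and Sox9 and Acta2 do not. Of the genes measured in Tdrkh+/-, 26.02% had a smaller 24 to 30 nt share than Star. The shares of Clu, Sox9, Myh11 and Acta2 lay above those of only 0.643%, 0.94%, 0.42% and 0.247% of genes.

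In Tdrkh-/- testes the lengths of Star shifted upwards, and those of Clu, Myh11 and Acta2 changed little or moved the other way. The most common length of Star was 31 nt in Tdrkh-/-, with 13.8% of 1838 reads at 24 to 30 nt, 65.4% at 31 to 37 nt (63.2 to 67.5) and 17.2% at 38 to 40 nt. The Star intervals of the libraries do not overlap at 24 to 30 nt or at 31 to 37 nt. Clu kept a 24 to 30 nt share of 36.8% (33.4 to 40.4), which overlaps its interval in Tdrkh+/-. Acta2 had 23.6% (20.3 to 27.1), which also overlaps. Myh11 had 41.7% (39.2 to 44.2), above its share in Tdrkh+/-. Sox9 fell to 15.8% of 202 reads (11.5 to 21.5), with 54.5% at 31 to 37 nt. The share was smaller in Tdrkh-/- for 3 of the 5 genes, namely Clu, Sox9 and Star, against 98.6% of the 4046 genes. The Clu difference, from 37.5% to 36.8%, is within counting error.

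Levels at 24 to 30 nt were at least 2-fold lower in Tdrkh-/- for 2 of the 5 genes, Star and Sox9, against 73.1% of the 4046 genes. Star had 537 reads of this length in Tdrkh+/- and 254 in Tdrkh-/-, which is 228 and 102 per 1000000 microRNA reads. Its log2 ratio was -1.16 (95% interval -1.38 to -0.94). Counted from sequences found in both libraries alone, the Star ratio turned to 0.30, and without sequences read once it was -0.99, just short of 2-fold. The median of the 4046 genes was -1.57, so Star fell less than the typical host. Sox9 had 69 and 32 reads, with a log2 ratio of -1.18 (-1.84 to -0.56). Only 2 Sox9 sequences occur in both libraries, and none of its 5′ ends had 5 reads of 24 to 40 nt in each, so its ratio compares different positions of the messenger RNA. Without its most read 5′ ends the Sox9 ratio was -0.88, and without sequences read once it was -0.93.

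Clu, Acta2 and Myh11 did not share the fall. At this length Clu counted 294 reads in Tdrkh+/- against 266 in Tdrkh-/-, a log2 ratio of -0.22 (-0.46 to 0.02) that lay above the ratios of 88.2% of the 4046 genes and becomes -0.64 per read listed and -0.79 per transcript-matching read. Acta2 had 111 and 139 reads, a log2 ratio of 0.25 (-0.12 to 0.62) that becomes -0.17 per read listed and -0.32 per transcript-matching read. Neither interval excludes equal levels per microRNA read. Myh11 had 243 and 627 reads, a log2 ratio of 1.29 (1.08 to 1.51), and was higher in Tdrkh-/- under all 3 scalings. Counted by distinct sequences, which number 93 in Tdrkh+/- and 61 in Tdrkh-/-, the Myh11 ratio turned to -0.59 per distinct sequence listed. On that measure Acta2 also turned, to -0.89, and Clu stood at -1.17, lower in Tdrkh-/- than by reads.

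At 31 to 37 nt, Star was the single gene of the 5 that was at least 2-fold higher in Tdrkh-/-, against 77.9% of the 4046 genes. Star had 187 reads of this length in Tdrkh+/- and 1202 in Tdrkh-/-, which is 79.4 and 484 per 1000000 microRNA reads. The log2 ratio was 2.61 (2.39 to 2.84), above that of 78.9% of genes, whose median was 1.73. At 38 to 40 nt Star had 13 and 317 reads, a log2 ratio of 4.53 (3.74 to 5.46). Counted by distinct sequences the 31 to 37 nt ratio of Star was 0.996. Star averaged 11.0 reads per distinct sequence in Tdrkh-/- and 3.43 in Tdrkh+/-. The other 4 genes averaged 3.81 to 6.73 in Tdrkh-/- and 1.87 to 2.25 in Tdrkh+/-, so fewer sequences were each read more often in Tdrkh-/- for every gene. Reads per sequence were also higher in the whole Tdrkh-/- library, so a rise in that value is not particular to the 5 genes. The whole Tdrkh-/- library did not have fewer distinct sequences, unlike the 5 genes. That library had 60973266 reads over 12118721 distinct sequences, and Tdrkh+/- had 43172204 over 11808018.

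The long reads of the other genes moved less. Myh11 had 280 such reads in Tdrkh+/- and 469 in Tdrkh-/-, a log2 ratio of 0.67 (0.45 to 0.88). Sox9 had 61 and 110 reads, with a log2 ratio of 0.78 (0.31 to 1.25). Clu had 249 and 240 reads (-0.13, from -0.39 to 0.13). Acta2 had 190 and 185 reads (-0.12, from -0.41 to 0.19). The Clu interval included 0 in each of the 4 length spans, and the Acta2 interval did in all but 38 to 40 nt (0.33, from 0.04 to 0.63). Over all lengths together Clu stood at -0.19 (-0.34 to -0.04). Of the 4046 genes, 3.86% and 3.98% had a lower ratio at 31 to 37 nt than Clu and Acta2. Without sequences read once, Sox9 at 1.34 and Myh11 at 1.04 also passed 2-fold in this span, while by distinct sequences they stood at -0.62 and -0.85.

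The 5′ base separated Star from the rest in the same way. In Tdrkh+/-, 77.5% of the 537 Star reads of 24 to 30 nt began with U (73.7 to 80.8), while U made up 22.4% of positions 2 to 11 of the same reads. In Tdrkh-/- the share was 60.2% of 254 reads (54.1 to 66.1) against 23.9%. The U share of Star exceeds that of 41.2% of genes in Tdrkh+/- and of 25.1% in Tdrkh-/-. Each distinct sequence counted once gave 65.6% of 157 sequences in Tdrkh+/- and 58.7% of 46 in Tdrkh-/-, so the 5′ U of Star does not rest on a few abundant sequences.

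**Figure D2:**
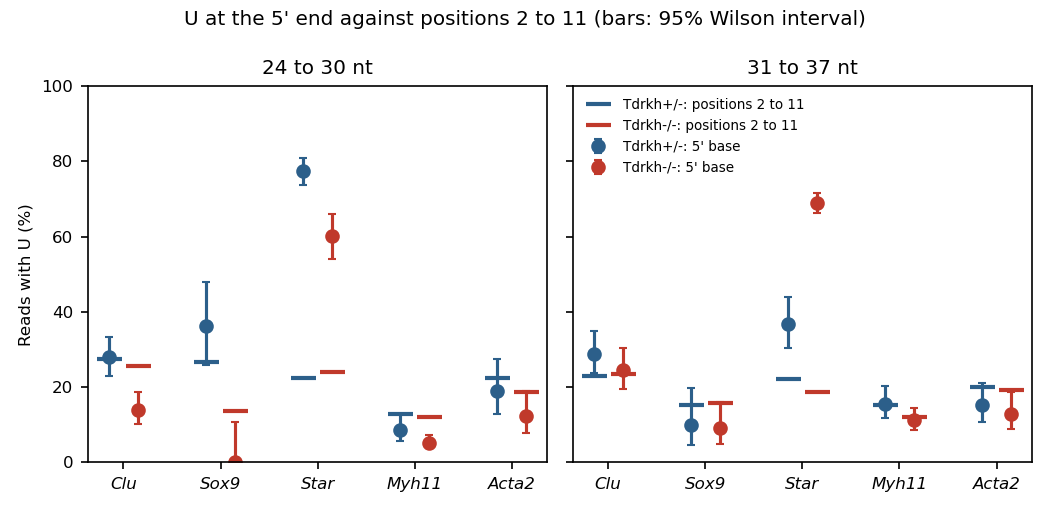
Share of reads with U at the 5′ end (points, with 95% Wilson intervals) and at positions 2 to 11 of the same reads (short lines), in percent, for each gene, at 24 to 30 nt (left) and 31 to 37 nt (right), with Tdrkh-/- in red and Tdrkh+/- in blue. Star lies above its lines in both libraries and both spans, by the least at 31 to 37 nt in Tdrkh+/- (36.9% against 22.2%). The points of Myh11 and Acta2 lie at or under theirs except for Myh11 at 31 to 37 nt in Tdrkh+/-.

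The 5′ U share at 24 to 30 nt was above positions 2 to 11 in Tdrkh+/- for 3 of the 5 genes, against 99.1% of the 4046 genes, and in Tdrkh-/- for Star alone, against 97.5%. Clu passed in Tdrkh+/- by 0.51 percentage points, with 27.9% of 294 reads (23.1 to 33.3) against 27.4%. Its Tdrkh-/- share was 13.9% (10.3 to 18.6) against 25.6%. Sox9 passed in Tdrkh+/- with 36.2% of 69 reads against 26.7%. Of its 25 reads with a 5′ U, 13 are the single sequence shown above, and 24.1% of its 29 distinct sequences began with U, against 24.5% at positions 2 to 11. In Tdrkh-/- 0 of 32 Sox9 reads began with U, which allows a share of up to 10.7%.

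Myh11 and Acta2, the muscle genes, had a smaller share of reads with U at the 5′ end than at positions 2 to 11. Myh11 had 8.65% in Tdrkh+/- and 5.26% in Tdrkh-/-, against 12.9% and 12.04% at positions 2 to 11. The gap was smaller by distinct sequences, with 12.9% against 14.9% in Tdrkh+/- and 13.1% against 15.2% in Tdrkh-/-. Many Myh11 reads share 1 common 3′ end, described below, and without them U began 14.5% and 14.3% of its reads. Acta2 had 19.1% (12.9 to 27.4) and 12.3%, against 22.5% and 18.8%, so its Tdrkh+/- interval includes the value within the reads. By distinct sequences Acta2 had 23.53% against 20.1% in Tdrkh+/-, the other way round. In Tdrkh+/-, 0.272% and 0.841% of genes had a smaller 5′ U share than Myh11 and Acta2. U reached at least 50% of 24 to 30 nt reads in Star alone of the 5 genes, in both libraries, against 93.6% of the 4046 genes in Tdrkh+/- and 85.5% in Tdrkh-/-.

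Star also led at 31 to 37 nt, while the order of the other genes changed. At 31 to 37 nt in Tdrkh-/-, U began 69.0% of Star reads, 24.6% of Clu, 9.09% of Sox9, 11.2% of Myh11 and 12.97% of Acta2. In Tdrkh+/- Star had 36.9% in this span, well under its 24 to 30 nt share, followed by Clu with 28.9%, Myh11 with 15.6%, Acta2 with 15.2% and Sox9 with 9.84%. Reads that end at 1 base of the Star messenger RNA, 1383 nt from its start, made up 96 of its reads in Tdrkh+/- and 249 in Tdrkh-/-, and none of them began with U. Without them the 31 to 37 nt share was 71.9% in Tdrkh+/- (62.2 to 79.9) and 87.0% in Tdrkh-/- (84.7 to 89.0). Star had 70.4% 5′ U at 18 to 23 nt in Tdrkh+/- and 84.6% in Tdrkh-/-. At 38 to 40 nt it had 90.5% in Tdrkh-/- and 5 of 13 reads in Tdrkh+/-.

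**Figure D3:**
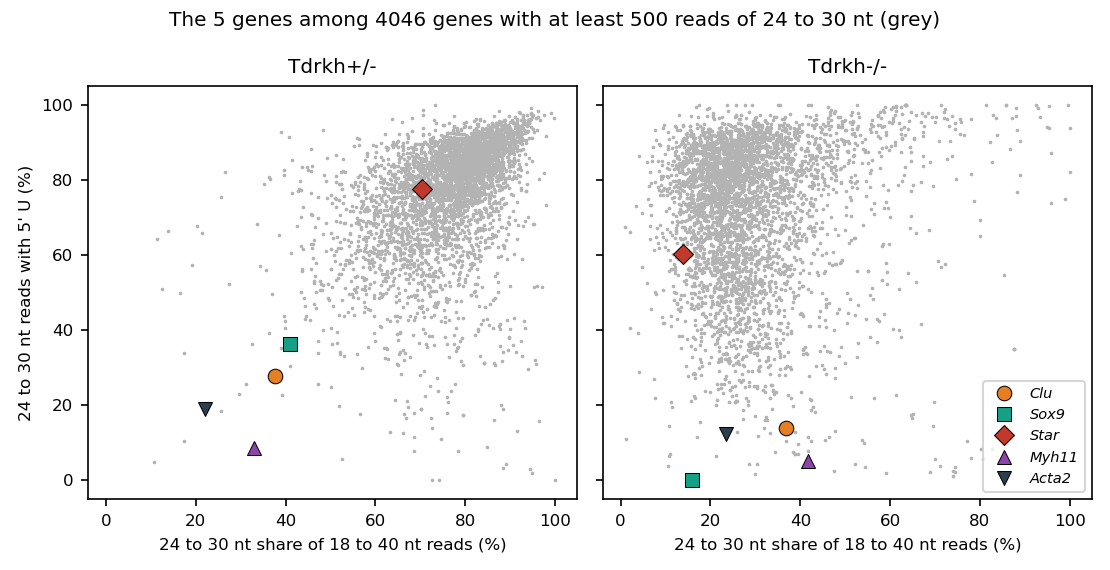
Share of 24 to 30 nt reads with a 5′ U (vertical axis, percent) against the 24 to 30 nt share of 18 to 40 nt reads (horizontal axis, percent), for 4046 genes in grey and the 5 genes in colour, in Tdrkh+/- (left) and Tdrkh-/- (right). Star lies within the grey cloud in both libraries, and in Tdrkh+/- Clu, Sox9, Myh11 and Acta2 lie at its lower left, with U shares of 8.65% to 36.2%.

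The genes also differed in which part of the messenger RNA gave the reads. Star reads came mainly from its 3′ untranslated region, which is 3096 of 4046 nt or 76.5% of the transcript. That region held 88.5% of its reads in Tdrkh+/- and 93.0% in Tdrkh-/-. Coding reads of Star were few, and 81.9% of the 72 of 24 to 30 nt in Tdrkh+/- began with U, as did 76.8% of the 465 from the 3′ untranslated region. In Tdrkh-/- the coding share was lower, 34.0% of 47 reads, against 66.8% of 205 from the 3′ untranslated region. Clu, whose 3′ untranslated region is only 230 nt or 12.7% of the transcript, had 53.5% of its reads there in Tdrkh+/- and 51.6% in Tdrkh-/-. Myh11 had 99.2% and 98.5% of its reads in the coding region, which is 90.4% of its bases. Acta2 had 98.6% and 96.4% in the coding region, which is 55.7% of its bases, and 1.0% and 3.1% in the 3′ untranslated region. Sox9 had 62.5% and 73.8% in the coding region, which is 36.9% of its bases.

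Clu was not uniform along its length. In Tdrkh+/-, 44.1% of its 111 coding reads of 24 to 30 nt began with U, against 25.7% at positions 2 to 11 of the same reads. In its 3′ untranslated region 18.9% of 175 reads did, against 29.1%. In Tdrkh-/- the coding share was 27.2% of 125 reads, against 24.5%. Sox9 showed the opposite split in Tdrkh+/-, with 0% of 30 coding reads and 74.2% of 31 reads of the 3′ untranslated region, 13 of them 1 sequence. These splits were made after the values were seen and are descriptions of few reads.

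**Figure D4:**
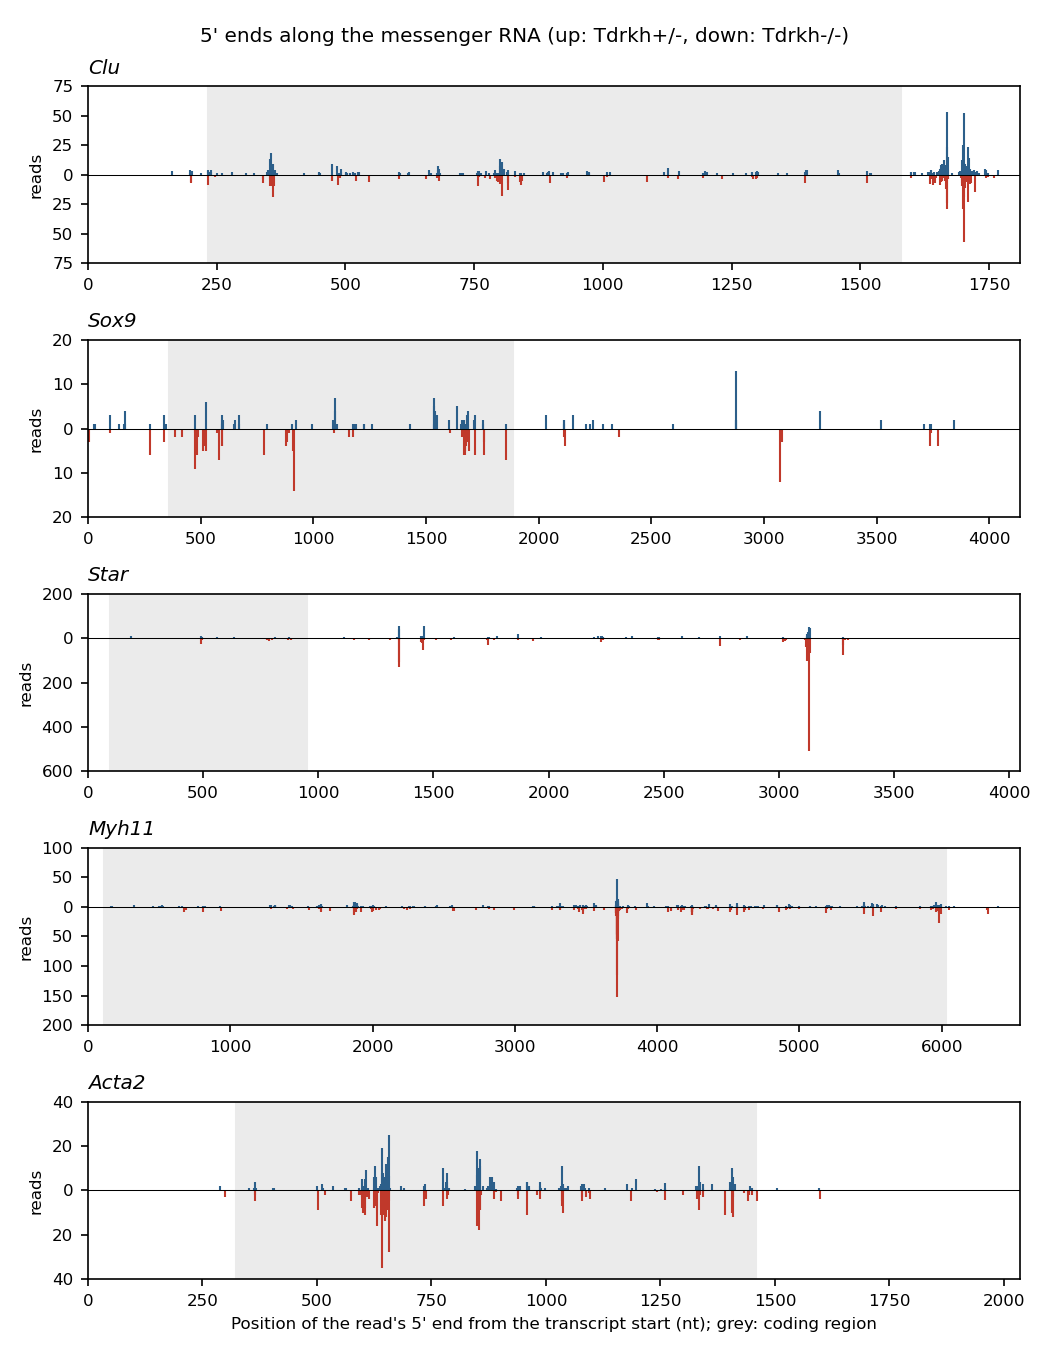
Reads of 18 to 40 nt by the position of their 5′ end, in nt from the start of the transcript (horizontal axis), upwards for Tdrkh+/- in blue and downwards for Tdrkh-/- in red, with the coding region in grey and a separate read scale (vertical axis) for each gene. Star reads lie in the 3′ untranslated region with the tallest end at position 3131, and Myh11 and Acta2 reads lie within the coding region.

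In Tdrkh-/- a single 5′ end held a larger part of the Star reads than any end of the other 4 genes did of theirs. The end at position 3131, a U, had 509 of the 1838 reads in Tdrkh-/- (27.7%) and 49 of 764 in Tdrkh+/-. Its reads of 24 to 40 nt averaged 34.6 nt in Tdrkh-/- and 28.2 nt in Tdrkh+/-. At position 3134, also a U, 66 and 46 reads averaged 35.7 and 27.2 nt. The same start thus carried longer reads in Tdrkh-/-. At position 1461, 55 reads of 28 nt in Tdrkh+/- stood against 0 in Tdrkh-/-. Left without the most read end of each library, Star kept a 24 to 30 nt log2 ratio of -1.25 and a 31 to 37 nt ratio of 2.48.

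Where both libraries had at least 5 reads of 24 to 40 nt from the same 5′ end, their lengths were compared directly. Star had 19 such ends, of which 17 had longer reads in Tdrkh-/- and 2 were equal, with a median difference of 2.26 nt. Of its 15 ends at U, 13 were longer. Clu had 21 ends, with 6 longer, 14 shorter and 1 equal in Tdrkh-/- and a median of -0.66 nt. Acta2 had 19 ends, with 7 longer and 12 shorter and a median of -0.40 nt. Myh11 had 14 ends, of which 8 were equal, with a median of 0 nt. Of the long Tdrkh-/- reads of Star, 71.1% began at a base where a 24 to 30 nt read began in Tdrkh+/-. When those bases were moved by 1 to 10 nt towards the start of the transcript, the share was 20.9% at the median and 43.3% at the highest. Moves the other way were not made. For Clu the share was 28.3%, against a median of 28.1%, and for Myh11 it was 14.2%, against 26.4%. Acta2, with 26.5%, was above its median of 18.4% and its highest of 24.3%, so a share above every move made was found for Star and Acta2.

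**Figure D5:**
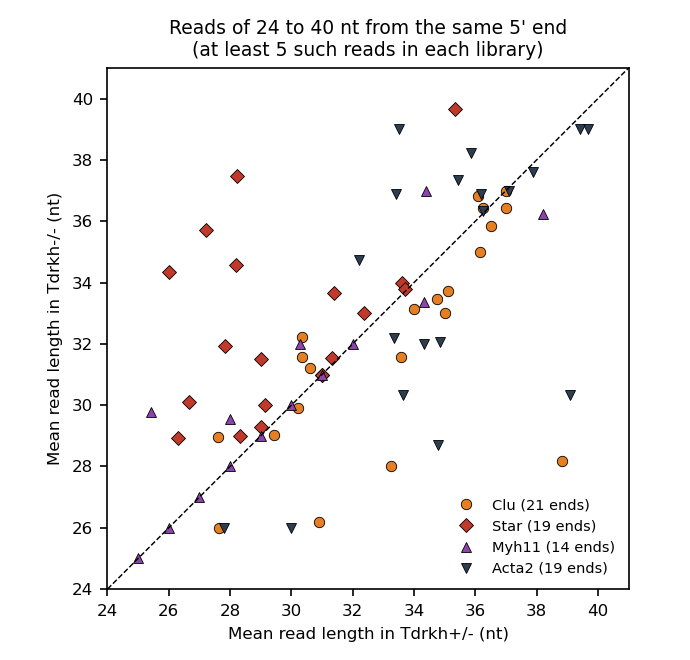
Mean length of reads of 24 to 40 nt that share a 5′ end, in nt, in Tdrkh-/- (vertical axis) against Tdrkh+/- (horizontal axis), for each end with at least 5 such reads in both libraries, with equal lengths on the dashed line. The Star points lie on or above the line, and the points of Clu, Myh11 and Acta2 lie on both sides of it.

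Common 3′ ends marked Myh11 most. In Tdrkh-/-, 662 of its 1504 reads (44.0%) ended at 1 base of coding exon 27, position 3747 of the messenger RNA, as did 168 of 737 (22.8%) in Tdrkh+/-. These reads came in 19 lengths in each library, from 19 nt up to 39 nt in Tdrkh-/- and 38 nt in Tdrkh+/-, and 5 of them in Tdrkh-/- and 0 in Tdrkh+/- began with U. The Myh11 sequences shown above belong to this set. Without it the Myh11 log2 ratio was 0.60 (0.29 to 0.91) at 24 to 30 nt and 0.33 (0.08 to 0.57) at 31 to 37 nt, and U began 14.3% and 14.5% of 24 to 30 nt reads in Tdrkh-/- and Tdrkh+/-. Clu had a smaller set of this kind in its 3′ untranslated region, with 69 reads in Tdrkh+/- and 76 in Tdrkh-/- that ended at position 1738 after 16 different starts. The Star end at position 1383 was of another shape, since nearly all its reads began at either of 2 adjacent C bases.

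The base after the 3′ end of a read, which is U after many untrimmed piRNA precursors, was read from the transcript. For Star it was U after 17.9% of 24 to 30 nt reads in Tdrkh+/- (14.9 to 21.3) and 50.8% in Tdrkh-/- (44.7 to 56.9). After 31 to 37 nt reads it was U in 71.1% in Tdrkh+/- and 61.6% in Tdrkh-/-, where 26.4% and 25.2% of nearby bases were U. The common Star end at position 1383 is followed by U, and without it these values were 43.8% (34.3 to 53.7) and 51.6% (48.5 to 54.8). Clu lay between 13.4% and 24.5%, and Acta2 between 11.9% and 26.2%, over both spans and libraries. Sox9 had 43.5% at 24 to 30 nt in Tdrkh+/- (32.4 to 55.2), against 21.9% nearby, and 13.1% to 28.2% otherwise. Myh11 had 52.1% in Tdrkh+/- and 69.9% in Tdrkh-/- at 24 to 30 nt, and 19.7% and 18.3% without its most common 3′ end.

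Antisense reads were another difference. Star had 208 reads of 18 to 40 nt on the opposite strand in Tdrkh+/- and 223 in Tdrkh-/-, of which 83.7% and 93.7% began with U. They were most often 27 nt long in Tdrkh+/- but 33 nt in Tdrkh-/-, so they followed the sense reads in length. At most 1 of them lay in an annotated gene on its own strand. Sense and antisense reads of 24 to 30 nt that overlapped did so by 10 nt, the mark of slicing by a PIWI protein, in 1.77% of 453 pairs in Tdrkh+/- and 0 of 52 in Tdrkh-/-. Over 18 to 40 nt they did so in 4.10% of 854 pairs and 5.23% of 4647. These pairs are products of read numbers, over overlaps of 1 to 24 nt. At 18 to 40 nt the 10 nt overlaps came from only 4 pairs of positions in Tdrkh+/- and 3 in Tdrkh-/-. At 24 to 30 nt they came from 1 in Tdrkh+/-. Whether overlaps of 10 nt were more frequent than other overlaps was not tested. Clu had 7 antisense reads in Tdrkh-/- and 0 in Tdrkh+/-. Sox9, Myh11 and Acta2 had 0 in both, which allows up to 3 reads in each library.

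Star, Clu and Sox9 reads match the transcripts of no other annotated gene, and the rest of the genome was not searched. Of the Acta2 reads, 7.81% also match Actg1, the cytoplasmic gamma actin, and the pseudogenes Gm12715, Gm6375, Gm16385 and Gm8399, and 6.79% match Actg-ps1. For Myh11 4.47% match Myh9. Sequences that match a single gene gave log2 ratios at 24 to 30 nt of 1.35 for Myh11 and 0.26 for Acta2, close to the divided counts.

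The other genes of the same cell types were mixed, so the 5 genes do not stand for their lists. Over the 4046 genes the median log2 ratios were -1.57 and 1.73 and the median 5′ U share in Tdrkh+/- was 80.4%. Of 31 Sertoli genes, Clu and Sox9 among them, 23 had at least 20 reads of 24 to 30 nt over both libraries. Their median log2 ratio was -0.60 at 24 to 30 nt and 0.78 at 31 to 37 nt, and the median 5′ U share in Tdrkh+/- was 37.5%, with 8 genes at 50% or more. Ctsl, a lysosomal protease, had 69.0% 5′ U in Tdrkh+/-, and Tjp1, a tight junction protein, had 61.5%. Of 16 Leydig genes, 10 were measured, with medians of -0.84 and 0.95 and a U share of 58.3%, and 7 reached 50%. Pdgfra, a growth factor receptor, had 83.6% 5′ U in Tdrkh+/-, and its log2 ratios were -0.99 at 24 to 30 nt and 3.90 at 31 to 37 nt. Ptch1, the Hedgehog receptor, had 67.7% and Scarb1, a lipoprotein receptor, 61.4%.

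Of 17 peritubular and smooth muscle genes, 9 were measured, with median log2 ratios of -0.58 and 0.67 and a U share of 40.0%, and 3 reached 50%. Aoc3, an amine oxidase of smooth muscle, was unlike Myh11 and Acta2, with 76.5% 5′ U in Tdrkh+/- and a 31 to 37 nt log2 ratio of 3.46. Mylk, the myosin light chain kinase, had 32.4% and Smtn, smoothelin, 42.7%. Of 8 endothelial genes 6 were measured, with median log2 ratios of -0.71 and 2.13 and a median U share of 62.6%. Cdh5, a cadherin, had 92.4% 5′ U in Tdrkh+/-, Flt1, a growth factor receptor, 84.6%, and Vwf, a clotting protein, 34.3%. No macrophage gene of 8 was measured, and C1qb, Cd68 and Lyz2 led them with 13 to 17 reads. The 5 erythroid genes measured, of 6, had a median U share of 34.6% and a log2 ratio of -0.12 at 24 to 30 nt. The alpha globin genes Hba-a1 and Hba-a2, near copies whose reads are divided, had 34.6% and 36.5%, and Alas2, of haem synthesis, had 86.7% of 15 reads.

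Germ cell and mitochondrial messenger RNAs had the highest and lowest median 5′ U share in Tdrkh+/- of the lists measured. The 19 spermatogonial genes measured had a median 5′ U share of 79.0% in Tdrkh+/-, log2 ratios of -1.41 and 1.76, and U in at least 50% of reads in 19 of 19. Lin28a, Zbtb16 and Dazl, which encode regulators of germ cells, had 91.8%, 71.7% and 82.5%. The 13 messenger RNAs encoded by mitochondrial DNA had a median 5′ U share of 25.5% and log2 ratios of -0.10 and 0.07. The respiratory chain genes mt-Co1, mt-Cytb and mt-Nd5 had 18.3%, 25.5% and 22.9%. By the medians of the Tdrkh+/- U share and of the log2 ratios, Star was near the spermatogonial genes, and Clu and Acta2 were near the mitochondrial ones. Which cells gave the reads of any of the 5 genes was not tested.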

How the data were processed

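The deposited files list each distinct small RNA sequence with its raw read count, 18 to 40 nt long and without header. Per the labels' protocols, gel-purified RNA of 15 to 40 nt was sequenced on an Illumina instrument. The submitters' processing notes name Bowtie and mm9, and the sources used here give neither a version nor the adapter step. Counts were used as deposited. Sequences were matched by whole length, without mismatch, to GENCODE M21 transcripts (GRCm38) with Python 3.11.15, NumPy 2.4.6 and Numba 0.67.0, and coordinates come from that match. Reads were divided equally among the genes matched, and sequences in over 20 genes and structural RNAs were set aside. Introns and other sequence outside annotated transcripts were not searched. Positions refer to the transcript with the most reads. Reads of 18 to 25 nt inside microRNA hairpins gave the scale. Intervals (95%) are Wilson's for shares and exact, by the conditional binomial, for ratios (SciPy 1.17.1). Sequences in either library were used, with those in both as an alternative. Alternatives changed counting, length spans, scale and the sequences kept, and 2 were chosen after seeing the data.

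The text names the 5 genes, the 3 genes of each list with the most 24 to 30 nt reads, and genes that share over 5% of a gene's reads. A gene and a sequence that this rule picks are not reported here. Some further names and splits were chosen after their values were seen. Genes and lists were chosen with earlier results of these data known. On simulated Poisson counts for 4046 genes, 100 of 100 genes changed 4-fold and 0 of 100 changed 1.5-fold were called at 2-fold at 24 to 30 nt. There 95.1% of intervals held the true value. Such counts treat each read as an independent molecule, so this does not show how the intervals hold for the real reads.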

Additional observations from a re-analysis of the deposited data

How the results depend on the processing

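The number of the 5 genes at least 2-fold lower at 24 to 30 nt was 2, and it became 0 without sequences read once, 0 with sequences found in both libraries alone and 1 without the most read 5′ ends. The number at least 2-fold higher at 31 to 37 nt was 1, and it became 0 by distinct sequences, 3 without sequences read once and 3 with sequences in both libraries. The number with 5′ U above positions 2 to 11 in Tdrkh+/- was 3, and it became 1 with sequences in both libraries. Sox9 has no 24 to 30 nt reads among sequences in both libraries, so the counts at that length could not include it there. The 24 to 30 nt log2 ratio turned from -1.16 to 0.30 for Star with sequences in both libraries, and from 1.29 to -0.59 for Myh11 by distinct sequences. The cause was not tested. Of the other 27 alternatives for counts of genes, 24 gave the same count. The remaining 3 differed by 1 gene: 3 genes 2-fold lower at 24 to 30 nt by distinct sequences, 2 with 5′ U above positions 2 to 11 in Tdrkh+/- without the most read 5′ ends, and 4 with a smaller 24 to 30 nt share in narrower spans. Of the values for single genes, 71 stayed within their counting interval and 64 moved beyond it. The 5′ U excess of Star kept its direction under every alternative run, from 26.3 to 62.9 percentage points. With at least 100 reads of 24 to 30 nt in place of 500, 10315 genes entered the comparison, and 70.2% were 2-fold lower at 24 to 30 nt and 72.1% 2-fold higher at 31 to 37 nt. No paired analysis was possible because there is 1 library per genotype. Depth limits Sox9 most, with 101 reads of 24 to 30 nt over both libraries, and no value has a replicate.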
